A study of Drosophila melanogaster with 8 samples.

Results

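The 10 genes described here are Egfr, the fly epidermal growth factor receptor, together with its ligands spi and vn, the ligand protease rho, the feedback inhibitors sty, aos and Mkp3, the effector pnt, and the immediate early genes Hr38 and sr. They were taken as a list of FlyBase symbols and matched to the gene identifiers of the deposited tables, and their counts and levels were read in every library. All 10 were present among the 13932 genes of the tables. Of these 10, 8 passed the filter on low counts and were tested with 8126 genes in all, whereas Egfr and Hr38 did not pass and are given as counts only. The cells were S2R+, a haemocyte-like Drosophila melanogaster culture line, labelled wild type, and an S2R+ derivative labelled STAT92E mutant, in which Stat92E had been knocked out with CRISPR. Both lines were exposed to upd or to control media for 1 hour, which gives 4 groups with 2 libraries in each. The allele, the number of clones behind the mutant line and the dose of upd were not given in the labels. The deposited tables of the upd groups carry the word conditioned in their names, and whether upd came in conditioned medium is not stated. Whether replicates were separate cultures is not in the labels, and the p-values therefore rest on the spread among libraries, which may be technical only.

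In flies, the transmembrane ligand Spitz is released when Rhomboid cleaves it, binds the receptor on the receiving cell and starts a relay through Ras, Raf and MEK to the kinase ERK. ERK then modifies transcription factors such as Pointed, and the pathway switches on its own inhibitors, which makes their transcripts a common readout of its activity. Sprouty and Mkp3 act inside the cell and also restrain other receptor tyrosine kinases, whereas Argos is secreted and captures Spitz. Immediate early genes are those induced within minutes to an hour of a stimulus without new protein synthesis. The ligand upd itself acts through another route, the receptor Domeless, the kinase Hopscotch and the transcription factor STAT92E.

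Library totals lay between 8285533 and 30352948 counts, and in wild type replicate 1 of each medium was shallow (8285533 and 9142736) and replicate 2 deep (28465332 and 30352948). The labels name no batch, so this split is read from the totals alone. Stat92E, the targeted gene, was still transcribed in the mutant line, at 103 to 121 CPM (counts scaled to the normalised library size) against 157 to 178 in wild type. In control media it was lower by 0.65 ± 0.14 (log2 ± SE, adjusted p = 0.0253, edgeR quasi-likelihood test), a call that was lost in 4 of 8 fits with a library left out and in both limma fits of RPKM (adjusted p = 0.162). With upd it was lower by 0.45 ± 0.14 and was not called (adjusted p = 0.0801). A knockout allele can leave its transcript in place, so this level checks the labels only in part. Socs36E, a feedback target of STAT92E, stood at 286.7 and 207.9 CPM in wild-type control media, at 926.8 and 1006.9 with upd, and at 32.4 to 98.0 in the mutant libraries. Its wild-type libraries with upd thus lay above all others, although its difference of 1.97 ± 0.39 for upd in wild type had an adjusted p of 0.722 in the edgeR fit of all libraries. It was called by DESeq2 (adjusted p = 3.72e-05) and by edgeR with no filter (2.82e-18), where the estimate was also 1.97 and only the error was smaller. The edgeR fit with the replicate number as a term within each line called it too (1.46e-09). So did the edgeR fit of wild type alone with depth as a term (3.77e-129), whose error is mostly shared across genes. Its adjusted p was 0.109 to 1 in the other alternatives, with 0.397 for the replicate number as a term over all libraries. Of 9 plasmatocyte markers in the tables, Pxn and srp alone reached 1 RPKM (reads scaled to gene length and library size) in every library, and the defining markers NimC1, with at most 3 counts, and Hml, under 1 RPKM, were nearly absent. The summed level of these 9 was 91.4 to 181 RPKM in wild type and 40.4 to 48.2 in the mutant line, mainly through the collagen genes vkg and Col4a1, at 11.3 to 92.6 against at most 0.243 RPKM. Summed neuron, muscle and fat body markers stayed at or under 1.81 RPKM in every library, with Lsp1alpha at 0. Lamellocyte markers summed to 14.8 to 22.8 RPKM, mainly PPO3, and crystal cell markers to 2.85 to 5.27 RPKM, with PPO1 at 0 counts. Of the ovarian and germline markers, bam alone was above 1 RPKM, at 16.9 to 19.9 in wild type and 0.504 to 2.61 in the mutant line. In a bulk library, fewer cells of a type and less RNA per cell cannot be told apart.

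The levels of the 10 genes, compared per length as RPKM, ran from among the most abundant transcripts of these cells to the detection floor. The gene sty stood highest in all 8 libraries, at 615.7 to 1310.4 RPKM, which placed it between rank 56 and rank 132 of all genes and gave it 0.291% to 0.658% of all gene counts. Next came spi at 75.1 to 151.9 RPKM and pnt at 54.9 to 75.7 RPKM, with spi above pnt in 7 of 8 libraries but with overlapping ranges. Mkp3, at 17.3 to 27.5 RPKM, and aos, at 8.44 to 26.5 RPKM, could not be ordered, since Mkp3 was the higher in 4 of 8 libraries. Below them rho reached 1.91 to 7.32 RPKM, vn 0.403 to 1.31 and sr 0.0585 to 0.259, each below the gene before it in 8 of 8 libraries and with no overlap of ranges. Hr38, at 0 to 0.0611 RPKM, and Egfr, at 0 to 0.068 RPKM, closed the order and were not separable.

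**Figure D1:**
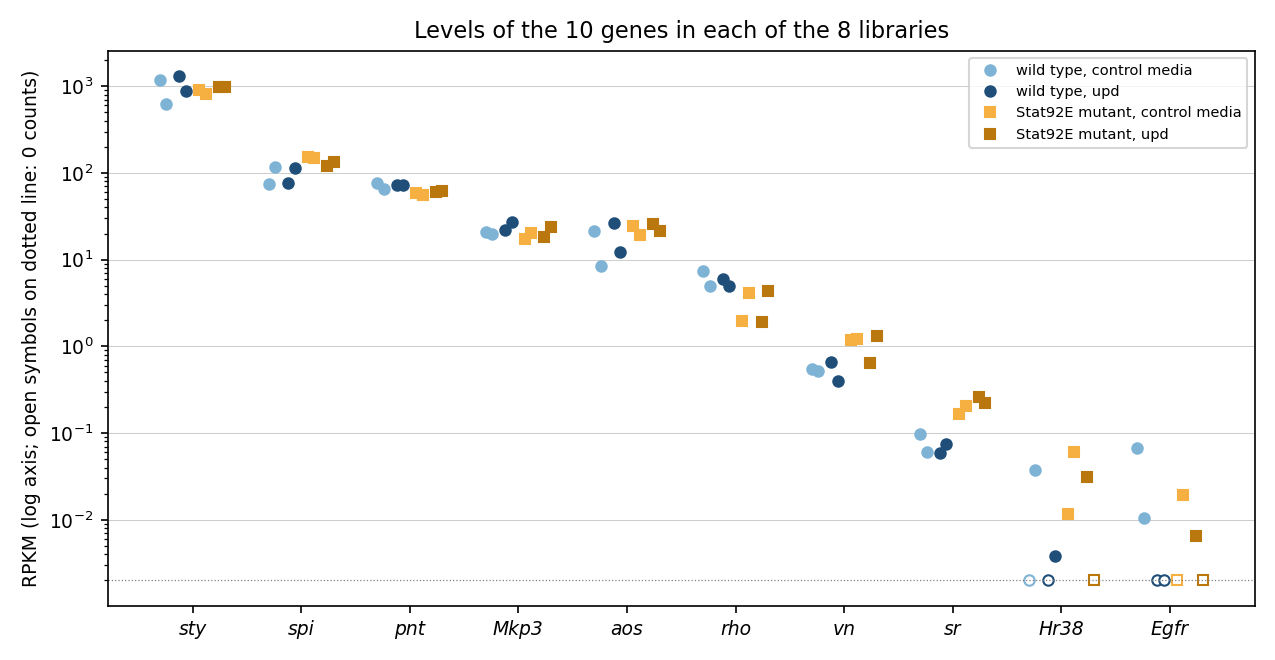
Level of each of the 10 genes in each of the 8 libraries, as RPKM on a log axis, with wild type as circles and the Stat92E mutant line as squares, pale for control media and dark for upd; open symbols on the dotted line are libraries with 0 counts. The gene sty lies between 615.7 and 1310.4 RPKM, whereas Egfr and Hr38 lie at or under 0.068 RPKM.

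Egfr, the receptor that gives the pathway its name (FBgn0003731, dm6 chromosome arm 2R, 21522420 to 21559977, plus strand, protein coding), was close to absent. It had 4 and 2 counts in wild-type control media, 0 and 0 with upd, 0 and 2 in mutant control media and 1 and 0 with upd. That makes 9 counts in all 8 libraries, and 3 counts correspond to 0.0961 to 0.379 CPM depending on the library. Only the shallow wild-type control library exceeded 3 counts, with 4. Summed over libraries, the ratio of mutant to wild type was 0.483 with a 95% interval of 0.0782 to 2.26, which covers counting error only, as do the other intervals of counts and the floor. The ratio of upd to control media was 0.114 (0.00258 to 0.853) from 1 count against 8. Such counts do not show whether the transcript was present in a few cells or came from stray reads.

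Transcripts of some other receptor tyrosine kinases, mainly Pvr and InR, were readily detected in the same libraries. Pvr, the receptor for PDGF- and VEGF-like ligands, reached 27.9 to 61.4 RPKM, and the insulin receptor InR 15.9 to 36.0 RPKM. Alk stood at 3.39 to 4.22 RPKM in the wild-type libraries and at 0.0677 to 0.285 in the mutant libraries, with no overlap. Its difference, mutant minus wild type, was -4.35 ± 0.56 in control media and -4.86 ± 0.57 with upd (adjusted p = 0.00217 and 0.00132, edgeR), and it was called in all 18 alternatives tried for each. Of the remaining receptors, sev lay at 0.187 to 0.37 RPKM, Cad96Ca between 0 and 0.649, and tor, htl, btl and Ret at or under 0.225 RPKM. Of the 9 receptors listed, 6 were tested, and Alk was the single one called between the lines.

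**Figure D2:**
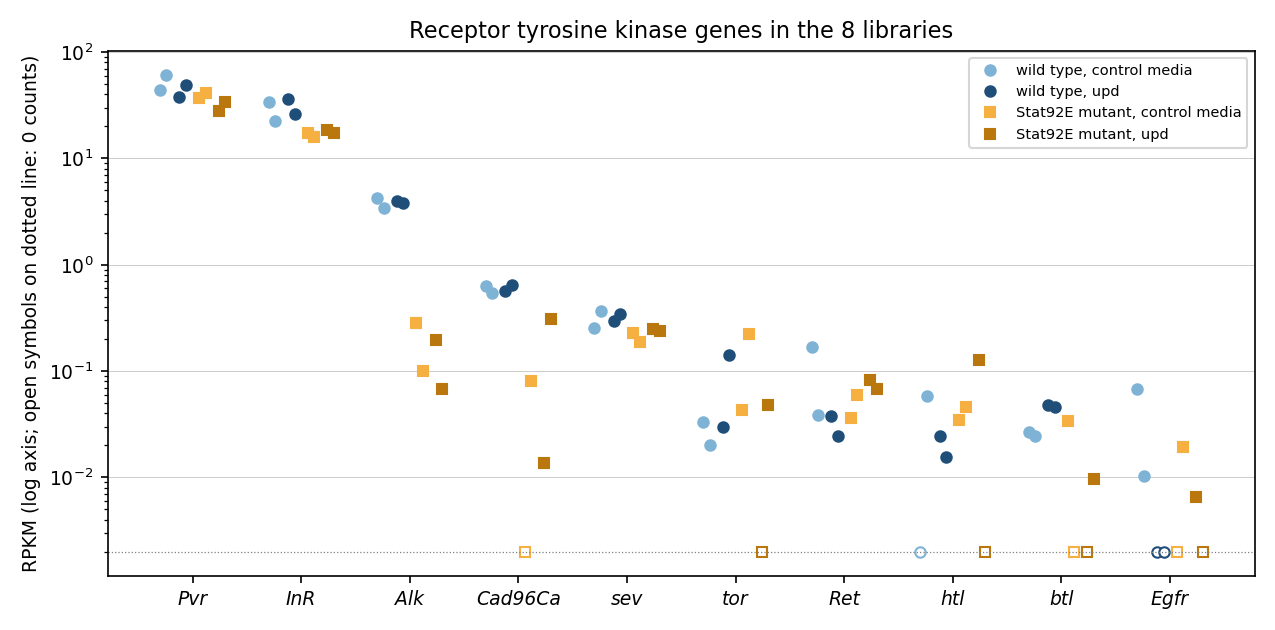
Level of 9 receptor tyrosine kinase genes and of Egfr in each of the 8 libraries, as RPKM on a log axis, with symbols as for the 10 genes; open symbols on the dotted line are libraries with 0 counts. Pvr and InR lie between 15.9 and 61.4 RPKM, Alk separates the lines at 3.39 to 4.22 against 0.0677 to 0.285 RPKM, and Egfr is among the lowest.

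Among the ligands, spi, which encodes the main activating ligand Spitz (FBgn0005672, 2L, 19567900 to 19577315, minus strand), was by far the more abundant. It had 150.8 and 196.9 CPM in wild-type control media and 162.2 and 202.9 with upd. In the mutant line it had 269.3 and 257.1 CPM in control media and 248.1 and 250.2 with upd. Every mutant library therefore lay above every wild-type library, and within wild type the shallow libraries were the lower ones. The gene vn, for the weaker, neuregulin-like ligand Vein (FBgn0003984, 3L, 5813338 to 5845664, minus strand), had 3.41 and 2.76 CPM in wild-type control media and 4.36 and 2.21 with upd. In the mutant line vn had 6.46 and 6.34 CPM in control media and 4.13 and 7.61 with upd. In control media the lines were apart, while with upd 1 mutant library fell between the wild-type values. Its counts were 27 to 178 a library.

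The gene rho encodes Rhomboid, the membrane protease that cleaves Spitz (FBgn0004635, 3L, 1463811 to 1468944, plus strand). It had 26.7 and 15.4 CPM in wild-type control media and 23.0 and 16.2 with upd. The mutant values were 6.36 and 12.7 CPM in control media and 7.16 and 14.8 with upd. All mutant libraries lay below all wild-type libraries, but the replicates of each line stood well apart and in opposite order, with replicate 1 the higher by 0.79 and 0.50 log2 units in wild type and the lower by 0.99 and 1.04 in the mutant line. Of the other ligand and processing genes, rho-4 reached 37.3 to 53.8 RPKM and the ligand genes grk and Krn 14.5 to 36.2 and 4.49 to 7.78 RPKM, while rho-6 had 0 counts in every library and ru at most 5.

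The feedback inhibitor sty encodes Sprouty, which blocks signalling from receptors to Ras and Raf (FBgn0014388, 3L, 3401153 to 3424935, minus strand). It had 6059.5 and 2717.3 CPM in wild-type control media and 7289.2 and 4075.4 with upd. In the mutant line it had 4141.4 and 3599.2 CPM in control media and 5255.3 and 4822.8 with upd. With upd both mutant libraries exceeded both control libraries, whereas in wild type the shallow control library exceeded the deep upd library. The gene aos encodes Argos, the secreted protein that captures Spitz (FBgn0004569, 3L, 16470386 to 16483650, minus strand). Its values were 72.7 and 24.6 CPM in wild-type control media, 97.2 and 36.6 with upd, 73.8 and 56.1 in mutant control media and 91.1 and 68.5 with upd. The groups overlapped in both lines, and the deep wild-type libraries were the lowest of all.

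The gap between wild-type replicates was thus larger than any gap between media for these inhibitors. Replicate 1 exceeded replicate 2 by 1.16 and 0.84 log2 units for sty and by 1.56 and 1.40 for aos, in control media and with upd, against 0.20 and 0.12 for sty and 0.40 and 0.41 for aos in the mutant line. The interquartile range of this gap over all tested genes was -0.29 to 0.30 in wild-type control media and -0.30 to 0.28 with upd. The shallow libraries also held more mitochondrially encoded transcripts, 20.22% and 22.07% of counts against 13.95% and 12.84% in the deep ones, and a lower plasmatocyte marker sum, 91.4 and 92.0 against 181 and 179 RPKM; the part of either in the gap was not tested. Mkp3, the phosphatase that inactivates ERK (FBgn0036844, 3L, 19066155 to 19086426, minus strand), had a gap of 0.30 and -0.04 between wild-type replicates. It had 118.2 and 96.1 CPM in wild-type control media and 134.7 and 138.9 with upd. In the mutant line Mkp3 had 87.2 and 99.3 CPM in control media and 108.0 and 126.0 with upd. All upd libraries lay above the control libraries of their line.

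The gene pnt encodes the ETS activator Pointed, a direct substrate and nuclear effector of ERK (FBgn0003118, 3R, 23290231 to 23346167, minus strand). Its range was the narrowest of the 10 in RPKM, 1.38 times between the lowest and the highest, while in CPM that of Mkp3 was narrower. It had 374.9 and 275.9 CPM in wild-type control media, 381.0 and 320.8 with upd, 256.3 and 232.0 in mutant control media and 304.6 and 290.3 with upd. Its mutant control libraries were the lowest, and its mutant libraries with upd overlapped the wild-type control libraries.

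The immediate early genes had the lowest levels of the list, together with Egfr. Hr38 encodes the NR4A-type nuclear receptor used as a marker of recently active neurons (FBgn0014859, 2L, 20683462 to 20714588, minus strand), and it is the single one of the 10 with an exon overlapping another gene, CG2617 on the opposite strand. Hr38 had 0 and 9 counts in wild-type control media, 0 and 1 with upd, 2 and 8 in mutant control media and 6 and 0 with upd. The 26 counts in all were not higher with upd: the ratio of upd to control media was 0.337 (0.12 to 0.838, 7 against 19 counts), and that of mutant to wild type 1.55 (0.66 to 3.81). The mutant libraries with upd had 6 and 0 counts at similar depth, and the intervals do not include such spread between libraries. The gene sr encodes Stripe, an EGR-type zinc finger protein (FBgn0003499, 3R, 18090803 to 18135583, plus strand), and had 6, 12, 4 and 16 counts in the wild-type libraries and 24, 22, 41 and 38 in the mutant libraries. These correspond to 0.759 and 0.394 CPM in wild-type control media, 0.485 and 0.512 with upd, 1.15 and 1.34 in mutant control media and 2.07 and 1.63 with upd. All mutant libraries lay above all wild-type ones, at a level of at most 0.259 RPKM.

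The comparison of upd with control media asks whether 1 hour of JAK/STAT stimulation moved the readouts of the EGFR and ERK pathway. In wild type, 0 of the 8 tested members passed an adjusted p of 0.05 in the edgeR fit of all libraries, in which 0.0% of 8126 genes were called. At an unadjusted p under 0.05, 148 genes and 0 members remained, DESeq2 called 10 genes and 0 members, and the edgeR fit with no filter 16 genes and 0 members. The differences, upd minus control, were 0.37 ± 0.38 for sty (95% interval -0.49 to 1.23), 0.47 ± 0.54 for aos (-0.76 to 1.69), 0.35 ± 0.16 for Mkp3 (-0.02 to 0.73) and 0.11 ± 0.18 for pnt (-0.30 to 0.52), all with an adjusted p of 1. For spi, rho, vn and sr they lay between -0.10 and 0.07. Groups did not overlap for Mkp3 alone, which was higher with upd, against 12.1% of genes that did so upward and 12.3% downward. With wild-type control replicate 2 left out the values for sty, aos and pnt fell below 0 (-0.09, -0.13 and -0.09). So they did with upd replicate 1 left out (-0.09, -0.37 and -0.01). The values of the same genes rose with control replicate 1 left out (1.06, 1.42 and 0.34) and with upd replicate 2 left out (0.73, 1.02 and 0.23). Each of these fits leaves shallow and deep libraries unequally shared between the media.

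Within the shallow and within the deep wild-type libraries the same differences were read with another error. Between libraries of the same replicate number, sty was higher with upd by 0.27 (shallow) and 0.58 (deep), aos by 0.42 and 0.58, Mkp3 by 0.19 and 0.53, and pnt by 0.02 and 0.22 log2 units. The interquartile range of all tested genes was -0.18 to 0.19 (shallow) and -0.14 to 0.14 (deep). When only the 4 wild-type libraries were fitted and depth, shallow or deep, was added as a term, a fit that was chosen after seeing the data and leaves 1 residual degree of freedom, sty was higher by 0.42 ± 0.08 (95% interval 0.26 to 0.58, adjusted p = 2.07e-05), aos by 0.50 ± 0.11 (0.28 to 0.71, adjusted p = 0.000359) and Mkp3 by 0.37 ± 0.09 (0.20 to 0.54, adjusted p = 0.000914). That makes 3 of the 7 members tested there called higher, with 3.11% of 7748 genes called higher and 1.25% called lower. With 1 residual degree of freedom the error is mostly shared across genes, and the SE was 0.08 for sty, pnt and spi alike. These intervals and p-values therefore do not measure the spread of each gene between its own libraries. The other members tested there did not pass: pnt was at 0.12 ± 0.08 (adjusted p = 0.494), spi at 0.07 ± 0.08 (0.773), rho at -0.05 ± 0.15 (0.914) and vn at -0.06 ± 0.35 (0.96), and sr was below that fit's filter. Over the alternatives tried, the adjusted p ran from these values up to 1 for sty, aos and Mkp3. The depth term is the same as the replicate number in this line, and what else differed between these libraries is not in the labels.

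In the mutant line the same comparison was made where Stat92E had been knocked out. Again 0 of 8 members were called and 0.0% of genes, with 266 genes and 0 members at an unadjusted p under 0.05, and DESeq2 called 2 genes and the fit with no filter 18, with 0 members in each. The differences were 0.38 ± 0.38 for sty (95% interval -0.48 to 1.24), 0.33 ± 0.16 for Mkp3 (-0.05 to 0.70), 0.30 ± 0.53 for aos (-0.91 to 1.5), 0.28 ± 0.18 for pnt (-0.13 to 0.70) and 0.57 ± 0.57 for sr (-0.73 to 1.87), with adjusted p of 0.992. Groups did not overlap, with upd the higher, for sty, pnt, Mkp3 and sr, 4 of 8 members against 18.0% of genes, and with upd the lower for spi against 19.0%. By replicate number, sty was higher with upd by 0.34 and 0.42, Mkp3 by 0.31 and 0.34, aos by 0.30 and 0.29 and pnt by 0.25 and 0.32 log2 units. Mitochondrially encoded transcripts moved with the medium in this line, from 15.02% and 15.06% of counts in control media to 19.07% and 17.01% with upd, and their part in these values was not tested. With the replicate number as a term within each line, an edgeR fit of all libraries called sty in the mutant line too (0.38, adjusted p = 0.0253, with 0.0253 to 1 over its alternatives). It also called sty and aos in wild type (0.43 and 0.50, adjusted p = 0.0258 and 0.0159). Over all 8126 genes, that fit called 467 in the mutant line and 111 in wild type.

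Taking the lines side by side, sty, aos, pnt and Mkp3 were higher with upd in all 4 comparisons between libraries of the same number, 4 of 8 members against 13.9% of genes. The values of spi ran from -0.12 to 0.10 and those of rho from -0.21 to 0.22, while vn (-0.63 to 0.34) and sr (-0.55 to 0.80), the genes with fewest counts, scattered in sign. The difference of the responses, wild type minus mutant, was tested as an interaction and called 0 members and 0.0% of genes, with 88 genes and 0 members at an unadjusted p under 0.05, and DESeq2 called 1 gene and the fit with no filter 4, with 0 members in each. It was -0.01 ± 0.53 for sty (95% interval -1.22 to 1.21), 0.17 ± 0.75 for aos (-1.54 to 1.89), 0.03 ± 0.23 for Mkp3 (-0.50 to 0.56) and -0.18 ± 0.26 for pnt (-0.76 to 0.41), all with an adjusted p of 1. These intervals leave room for a difference in either direction, so the lines are not shown to respond alike. For comparison, Socs36E was higher with upd by 1.69 and 2.28 log2 units in wild type and by 0.30 and 0.97 in the mutant line, and its own difference of responses, 1.22 ± 0.54, had an adjusted p of 1 in that fit, 0.0358 with no filter, 0.000749 with the replicate number as a term within each line, and 0.987 to 1 in its other alternatives.

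**Figure D3:**
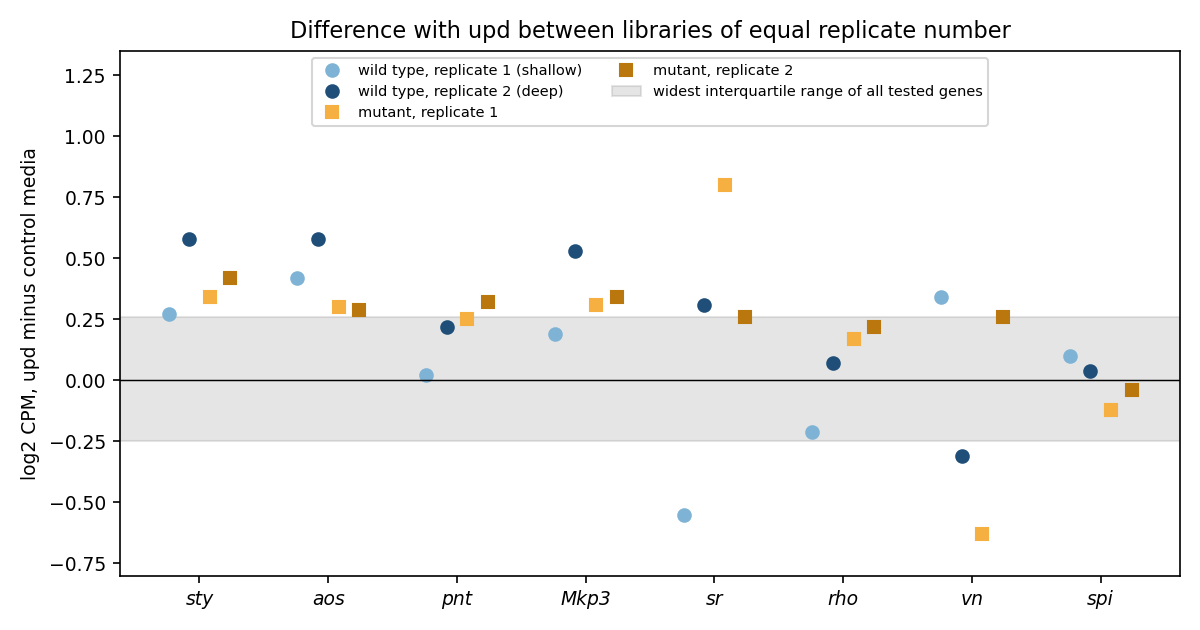
Difference in log2 CPM between the upd and the control library of the same replicate number for the 8 members tested, with circles for wild type and squares for the mutant line; the grey band is the widest of the 4 interquartile ranges of all tested genes, -0.25 to 0.26. All 4 symbols lie above 0 for sty, aos, pnt and Mkp3, between 0.02 and 0.58.

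The comparison of the lines asks which transcripts differ between the STAT92E mutant and the wild-type line, with no upd and with it. Genotype and line coincide in these samples, so loss of STAT92E cannot be told apart from other differences between the lines. In control media 0 of 8 members were called by the edgeR fit of all libraries, in which 8.97% of genes were called, 3.27% higher and 5.7% lower in the mutant line. Closest to the threshold was spi, at 0.60 ± 0.18 (95% interval 0.19 to 1.00, adjusted p = 0.0746). DESeq2 called spi (adjusted p = 0.0232) among 1138 genes called of 8126, and edgeR with no filter on low counts called it (adjusted p = 0.0255) among 1294 genes. Over its 18 alternatives the adjusted p of spi ran from 9e-06 to 0.327. The lowest came from the edgeR fit with the replicate number as a term within each line. Between the lines that fit leaves the spread between replicates out of the error. The genes vn at 1.07 ± 0.44 (0.07 to 2.07, adjusted p = 0.176), rho at -1.13 ± 0.46 (-2.17 to -0.09, adjusted p = 0.17) and sr at 1.21 ± 0.63 (-0.23 to 2.66, adjusted p = 0.289) did not pass. Of these, rho was called by edgeR with no filter (adjusted p = 0.000842), at a similar difference of -1.12 but with a smaller error. Its adjusted p ran over its alternatives from 1.16e-05, again with the replicate number as a term within each line, to 0.585. Unadjusted p-values under 0.05 were found for rho, vn and spi, and for 24.5% of genes.

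The remaining members differed by less in control media, pnt by -0.41 ± 0.18 (-0.83 to 0.00, adjusted p = 0.205), aos by 0.44 ± 0.54 (adjusted p = 0.679), Mkp3 by -0.20 ± 0.16 (adjusted p = 0.514) and sty by -0.18 ± 0.38 (adjusted p = 0.823). The groups did not overlap for sr, vn and spi, the mutant line being higher, and for pnt and rho, the mutant line being lower. These counts of 3 and 2 of 8 stand against 28.2% and 28.1% of genes, which is about the share among all genes. The values of sty and aos turned in sign with single libraries, to 0.50 for sty without wild-type control replicate 1 and to -0.16 for aos without wild-type control replicate 2.

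With upd, 0 of 8 members were again called, while 10.5% of genes were, 3.99% higher and 6.53% lower in the mutant line. The largest difference was that of sr, at 1.86 ± 0.62 (95% interval 0.45 to 3.28, adjusted p = 0.0954), followed by vn at 0.90 ± 0.44 (adjusted p = 0.238), rho at -0.82 ± 0.45 (adjusted p = 0.294) and spi at 0.45 ± 0.18 (adjusted p = 0.149). The edgeR fit with no filter called 1429 genes, among them rho (adjusted p = 0.0242), at the same difference of -0.82 but with a smaller error. Over its alternatives the adjusted p of rho ran from 0.000163, with the replicate number as a term within each line, to 0.71. At an unadjusted p under 0.05 stood sr and spi, with 26.3% of genes. The members sty (-0.17 ± 0.38), aos (0.27 ± 0.53), pnt (-0.24 ± 0.18) and Mkp3 (-0.23 ± 0.16) had adjusted p-values of 0.433 to 0.819. Without wild-type upd replicate 1 the sty difference was 0.30, and without wild-type upd replicate 2 the aos difference was -0.28. With single libraries left out, vn ranged from 0.39 to 1.40 and rho from -1.44 to -0.39. Groups did not overlap for sr and spi upward, against 26.8% of genes, and for pnt, Mkp3 and rho downward, against 26.4%.

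Taken over both media, the 4 mutant libraries lay wholly above the 4 wild-type ones for sr and spi, against 14.7% of genes, and wholly below for rho, against 16.3%. These counts of 2 and 1 of 8 are near the share among all genes, and none of the 3 genes was called in the fit of all libraries. Over the 8 libraries the log2 CPM values of spi and rho had a Pearson r of -0.86, given as a description because lines, media and replicate numbers are shared by these points. The plasmatocyte marker sum and bam also differed between the lines, as given above, and their part in these differences was not tested.

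**Figure D4:**
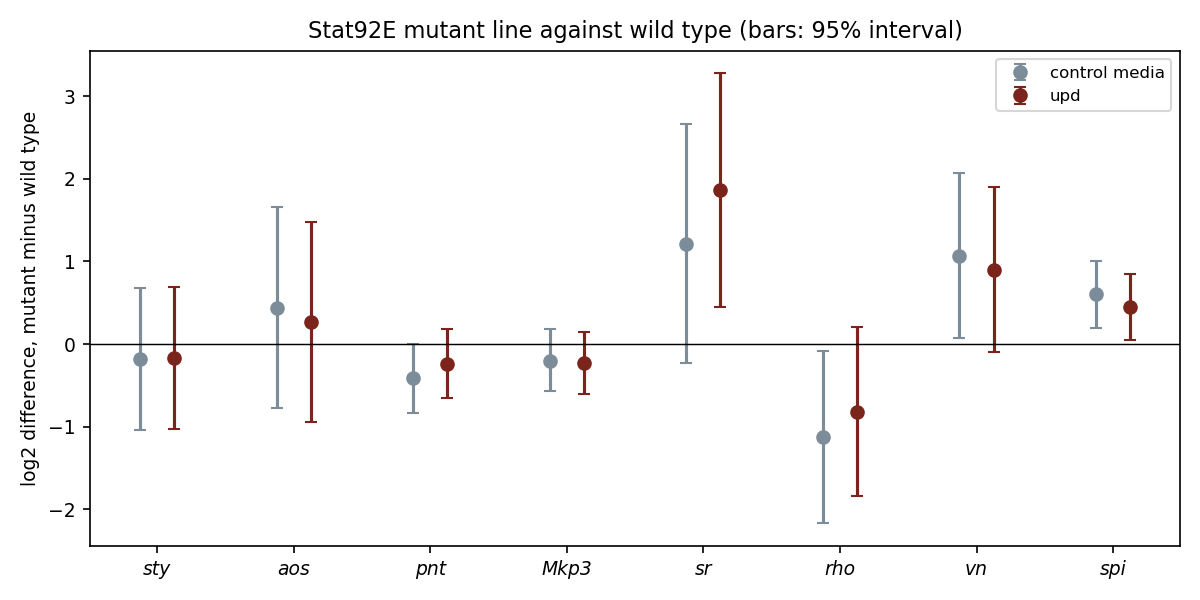
Difference in log2 CPM between the Stat92E mutant and the wild-type line for the 8 members tested, in control media and with upd, with bars for the 95% interval of the edgeR fit of all libraries. The intervals of spi lie above 0 in both media, from 0.19 to 1.00 and from 0.05 to 0.85, although its adjusted p was 0.0746 and 0.149.

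Companion genes of the pathway were read for context. With upd, edgeR called 0 of them in either line, and 0 for the difference of the responses, over 6 tested ligand and processing genes, 14 genes of the ERK cascade, 11 inhibitors and nuclear repressors, 6 receptors and 9 transcription factors. These 9 factors were listed as immediate early or growth-factor-induced, so not each of them need be an immediate early gene. The 9 factors had the highest median in wild type, 0.41 against 0.00 over all genes, with 9 of 9 above 0. In the mutant line their median was 0.15, with 7 of 9 above 0. The difference of the responses had a median of 0.04, with 5 of 9 above 0. The lowest p among them in wild type was that of Ets21C, an ETS factor induced by stress and growth signals, at 0.86 ± 0.26 (adjusted p = 1). In the wild-type fit with depth as a term, which called 3.11% of genes higher and 1.25% lower, 8 of 9 factors were above 0 and 4 were called higher, Ets21C by 0.86 ± 0.12, the Jun gene Jra by 0.58 ± 0.08, Myc by 0.56 ± 0.08 and CrebA by 0.49 ± 0.09. The same fit called 3 of 11 inhibitors and repressors higher, RasGAP1 by 0.54 ± 0.09, the repressor gene ttk by 0.40 ± 0.08 and edl, for an ETS-binding regulator, by 0.39 ± 0.08, and the Ras inhibitor Nf1 lower (-0.73 ± 0.22). Of the 14 cascade genes it called the adaptor dos, higher by 0.41 ± 0.08, and it called 0 ligand genes and 0 receptors. As for the members, the SE values of that fit come mostly from an error shared across genes.

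Between the lines, companion genes were called in both directions, as were all genes, of which 3.27% were called higher and 5.7% lower in control media and 3.99% and 6.53% with upd. Among the inhibitors and repressors kek1, for a transmembrane inhibitor of the receptor, was lower by 1.32 ± 0.17 in control media and by 1.11 ± 0.16 with upd (log2, adjusted p = 0.002 and 0.00431, edgeR), and aop, for the repressor Yan, was lower by 1.18 ± 0.19 with upd (adjusted p = 0.00651). Of the 14 cascade genes dos was lower by 1.00 ± 0.17 with upd (adjusted p = 0.00648, edgeR). Of the 9 listed transcription factors Ets21C was lower by 2.11 ± 0.27 with upd (adjusted p = 0.00199, edgeR). These 5 differences were called in all 18 alternatives tried for each. In all, control media had 2 of 11 inhibitors lower and 0 higher, with a median of -0.29, and upd 4 lower and 0 higher, with a median of -0.40, against all-gene medians of 0.01 and 0.02. Low medians were not particular to the inhibitors. In control media and with upd they were -0.38 and -0.67 for ligand and processing genes and -0.77 and -1.34 for receptors. The listed transcription factors had -0.48 and -0.66, and the cascade genes 0.07 and 0.35.

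Other calls between the lines were lost when libraries were left out, and many of them under other settings too. In control media Ets21C (-1.52 ± 0.27) and cbt (-1.11 ± 0.22), a zinc finger factor, were lower, making 2 of the 9 listed transcription factors. Their calls were lost in 2 and 3 of 8 fits. With upd cbt (-1.15 ± 0.22), Jra (-0.99 ± 0.20) and the Fos gene kay (-0.66 ± 0.17) joined Ets21C, making 4 of 9, and were lost in 2, 2 and 6 fits. The rhomboid-family gene rho-5 was lower in control media (-1.51 ± 0.31, lost in 4 fits), and was the single call in either medium among 6 ligand and processing genes. The ERK phosphatase gene PTP-ER was higher in both media (0.68 ± 0.16 and 0.65 ± 0.16, lost in 5 and 6 fits) and Ras85D was higher with upd (0.57 ± 0.15, lost in 8). Lower were dos in control media (-0.65 ± 0.16, lost in 8), Raf with upd (-0.63 ± 0.15, lost in 6), cic, for the repressor Capicua, in both media (-0.67 ± 0.17 and -0.68 ± 0.17, lost in 6 and 5) and ttk with upd (-0.66 ± 0.14, lost in 4). Settings that kept all libraries of a comparison also lost calls, among them limma, upper-quartile scaling and fits of only the groups compared. In control media these were 2 settings for Ets21C, 4 for dos and 3 for cic. With upd they were 4 for cic, 2 for kay and 3 each for PTP-ER, Raf, Ras85D and ttk.

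Within the list, the genes fell into patterns over the 8 libraries that are given as Pearson r of log2 CPM, with no test, since the libraries share lines and replicate numbers. The inhibitors sty and aos had an r of 0.85, sty and pnt 0.77, and pnt and Mkp3 0.73, whereas pnt and spi had -0.85. Among 8118 other genes, the closest to aos was Rbcn-3A with an r of 0.996, at 139 to 233 CPM, and then Nmnat with 0.973. The closest to rho were CG12883 with 0.986 and CG31886 with 0.984, and CG31886 had 38.9 to 54.7 CPM in wild type against 12.6 to 29.4 in the mutant line. The closest to sr were CG13018 with 0.991 and Bacc with 0.986, and the closest to vn were RtGEF with 0.969 and Zaf1 with 0.967. Nothing is read from these values on shared function or control.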

How the data were processed

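Polyadenylated RNA of 8 libraries was measured, 2 in each of 4 groups defined by line and medium. Extraction was with Trizol and library preparation with a Wafergen PrepX kit, per the labels' protocols. Trimmomatic 0.36, STAR 2.5.2b and the dm6 assembly are named in the submitters' processing notes. Which program counted the reads, and with which annotation and strand setting, is not given in the sources used here. The deposited tables hold whole-number counts per FlyBase gene, which entered the tests unchanged. The authors' RPKM values derive from these counts, scaled to a library total of which the gene counts are 85.22% to 90.61%, and were used to compare levels between genes. Gene symbols and positions were taken from an Ensembl dm6 annotation, in which 13852 of 13932 identifiers were found and 80 were not. Totals of 8285533 to 30352948 counts set the floor of 3 counts at 0.0961 to 0.379 CPM.

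Counts were fitted with edgeR 4.0.16 in R 4.3.3 (TMM scaling, filterByExpr, 4 group means, two-sided quasi-likelihood F-test), with all 8 libraries in 1 fit, 8126 genes and 4 residual degrees of freedom. The p-values were adjusted over all tested genes by Benjamini and Hochberg's method, with a threshold of 0.05. CPM values are counts scaled to the TMM-adjusted library size, and intervals are 95%. The lines were each compared between media, their responses were compared with each other, and the mutant line was compared with wild type in either medium. The members and lists, the tests and the alternatives were chosen with earlier results of these data known. Named were all 10 members, up to 6 called genes of each companion list and comparison or else the gene with the lowest p, and the 2 closest genes by Pearson r for the 4 members that varied most between groups; Socs36E and Stat92E served as checks. Remarks on levels of other listed genes (rho-4, grk, Krn, rho-6, ru, the receptors and the markers) and the single fits quoted beside a value were chosen after their values were seen. Alternatives were median-of-ratios and upper-quartile scaling, no filter, a filter on a mean RPKM of at least 1, limma 3.58.1 on log2(RPKM + 1) and log2(RPKM + 0.1), replicate blocks, fits of only the groups compared, DESeq2 1.42.0, depth (shallow or deep) as a term in wild type and leaving out each library. No promoter or protein sequence was used here.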

Additional observations from a re-analysis of the deposited data

How the results depend on the processing

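None of the 40 member values was called in the main fit, so no call could be lost. Under the 19 alternatives, 633 of 708 values for the members kept their direction and stayed uncalled. Another 22 passed the threshold that had not, and 53 uncalled values changed sign, 39 of these with a library left out. The count of called members was 0 in every fit that left out a library and 0 in every setting for the difference of the responses. With upd in wild type it was 3 of 7 with depth as a term (338 genes called). In control media between the lines it was 2 with no filter (1294 genes), 1 with DESeq2 (spi, 1138 genes) and 0 in the remaining settings without a block, of which the filter on a mean RPKM of 1 tested 6 members and the others 8. With upd between the lines it was 1 with no filter (1429 genes). Calls over all genes between the lines were 253 to 782 in control media and 382 to 774 with upd when libraries were left out, against 729 and 855, and the causes were not tested. With log2(RPKM + 1) the median of all genes moved to -0.139, and with log2(RPKM + 0.1) to -0.178, for upd in the mutant line.

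Replicate numbers are shared by the groups, and deviations of same-numbered libraries correlated at 0.485 between media in wild type and 0.514 in the mutant line but at -0.0595 to 0.0605 between the lines, so the numbers were not taken to pair samples across the design. Within a line they may mark shared conditions, and the comparisons of same-numbered libraries and the fit with depth as a term rest on them. With a replicate block over all libraries, 1 member (spi, adjusted p = 0.0285) was called between the lines in control media (1247 genes) and 0 with upd (1386 genes). With a replicate block within genotype, 2 members were called with upd in wild type (sty at 0.43 and aos at 0.50, 111 genes), 1 in the mutant line (sty at 0.38, adjusted p = 0.0253, 467 genes), 5 between the lines in control media (aos, pnt, rho, vn and spi, 3054 genes) and 6 with upd (aos, pnt, sr, rho, vn and spi, 3241 genes). Between the lines that block leaves the spread between replicates out of the error. Totals of 8285533 and 9142736 counts in the shallow wild-type libraries limit sr, vn, Hr38 and Egfr most.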
